A study of Homo sapiens with 14 samples.

Results

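Circular RNAs (circRNAs) of the genes UBXN7, PCMTD1 and GPBP1L1 were followed through 6 subcellular fractions of HepG2, a human liver cancer cell line. The members are every entry of the 6 tables whose start and end both lie inside the RefSeq span of one of these genes on hg38. They number 14 of the 11227 circRNAs listed, 6 from UBXN7, 4 from PCMTD1 and 4 from GPBP1L1. The genes were selected on the measured cytosolic levels of their circRNAs, so these levels and every ratio to them are given as a description, with no test.

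The groups used here are cytosol, ribosome, exosome, nucleus, cytoplasm and whole cell, with 2 libraries each. The labels name no treatment or genetic change for any of them, and neither say how the fractions were isolated nor whether paired libraries were grown as separate cultures. The spread behind each p-value may therefore be technical. Ribosomal RNA was removed from every sample except the exosomal ones, which gives the exosomal levels another denominator. The 2 mitochondrial samples were not analysed here.

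A circRNA forms when the splicing machinery joins the end of an exon to the start of the same or an earlier exon, which leaves a closed ring with no cap and no poly(A) tail. Reads that cross this back-splice junction identify it. Rings of exons are mostly found in the cytoplasm, and having no free ends they resist the enzymes that degrade linear RNA from its ends. UBXN7 encodes a UBA-UBX protein that links ubiquitinated substrates and cullin ligases to the ATPase VCP (p97). PCMTD1 encodes a relative of the protein L-isoaspartyl methyltransferase PCMT1. GPBP1L1 encodes a nuclear protein related to GPBP1, a factor that binds GC-rich promoters.

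Each library held between 2301 circRNA reads in exosome replicate 2 and 72415 in cytoplasm replicate 1. Nuclear libraries had 7727 and 7235. Nuclear and exosomal values therefore rest on few reads, and no level is per cell. Levels below are RPTM, junction reads scaled to a library of 10000000 reads, and each ± is an SD over the 2 libraries. A junction is 1 position however long the ring is, so levels of different circRNAs can be set side by side without dividing by length. A table lists a circRNA for a caller only where both libraries had a read, so an unlisted circRNA is not a measured 0. The tables hold no linear RNA, so the purity of the fractions was not tested. Of 12 hepatocyte marker genes, 5 (ALB, APOB, APOH, FGA and FGG) gave circRNAs here.

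A single circRNA held most of each gene's junction level in the cytosol, the fraction by which the leading circRNA was defined. The leading UBXN7 circRNA (chromosome 3, 196391813 to 196403019, a genomic span of 11207 bases) held 94.7% and 97.5% of the UBXN7 junction level in the cytosolic libraries. The leading GPBP1L1 circRNA (chromosome 1, 45640210 to 45642499, 2290 bases) held 95.6% and 98.8% of its gene's cytosolic level. The leading PCMTD1 circRNA (chromosome 8, 51860845 to 51861246) spans only 402 bases and held 84.3% and 82.8%. PCMTD1 thus had the largest part outside its leading ring in the cytosol. In the cell libraries the leading rings held 98.6% and 97.9% for UBXN7, 75.5% and 70.3% for PCMTD1 and 88.6% and 89.5% for GPBP1L1. In the ribosome fraction the leading GPBP1L1 ring was unlisted.

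The leading UBXN7 circRNA was read 411 and 500 times in the cytosol by the caller headed Ciri, and 394 and 479 times by the caller headed CIRC. Its level was 42.6 and 47.0 RPTM in the cytosolic libraries, 12.6 and 14.6 in the ribosomal, 2.44 and 0.299 in the exosomal, 2.30 and 1.71 in the nuclear, 14.0 and 9.52 in the cytoplasmic and 7.79 and 6.03 in the cell libraries. Both cytosolic libraries lay above every other library. It ranked 3 among 5105 cytosolic entries at 44.8 ± 3.09, and 2 among the circRNAs tested below, between those of NFATC3 (45.7 ± 10) and HIPK3 (40.9 ± 3.23), from which it did not stand apart beyond the spread. Ribosome (13.6 ± 1.38) and cytoplasm (11.8 ± 3.19) overlapped, as did nucleus (2.01 ± 0.415) and exosome (1.37 ± 1.51). The exosomal value came from Ciri alone, with 16 reads in replicate 1 and 3 in replicate 2.

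The leading PCMTD1 circRNA had 14.8 and 17.1 RPTM in the cytosol, 0.930 and 0.706 in the ribosomal libraries, 0.686 and 0.399 in exosomes, 0.115 and 0.254 in the nucleus, 2.08 and 1.66 in the cytoplasm and 2.13 and 1.69 in cells. The highest library outside the cytosol was cell replicate 1. Reads by Ciri were 142 and 181 in the cytosolic libraries, against 9 and 5 in the ribosomal ones. Cell (1.91 ± 0.316) and cytoplasm (1.87 ± 0.296) overlapped, and the lower fractions followed in the order ribosome, exosome and nucleus without overlap, though on few reads. The nuclear value rested on 1 and 2 reads of CIRC alone. The circRNA was 35th of 5105 cytosolic entries at 16.0 ± 1.67, but 592nd of 6968 in the cytoplasm and 666th of 2899 in the ribosome fraction.

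The leading GPBP1L1 circRNA was listed in 3 fractions only. It had 9.16 and 8.16 RPTM in the cytosol, 2.61 and 2.88 in the cytoplasm and 1.65 and 2.21 in cells. These 3 groups did not overlap, and the cytosolic libraries, with 88 and 86 reads by Ciri, were the highest. Neither caller listed it in the ribosome fraction, where its cytoplasmic share of circRNA reads would give 10.3 and 7.39 reads. At that share only 2.91 and 2.72 reads would fall in the nuclear libraries, and at the cell share 0.808 and 0.807 in the exosomal ones. So few reads could go unlisted at this depth.

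**Figure D1:**
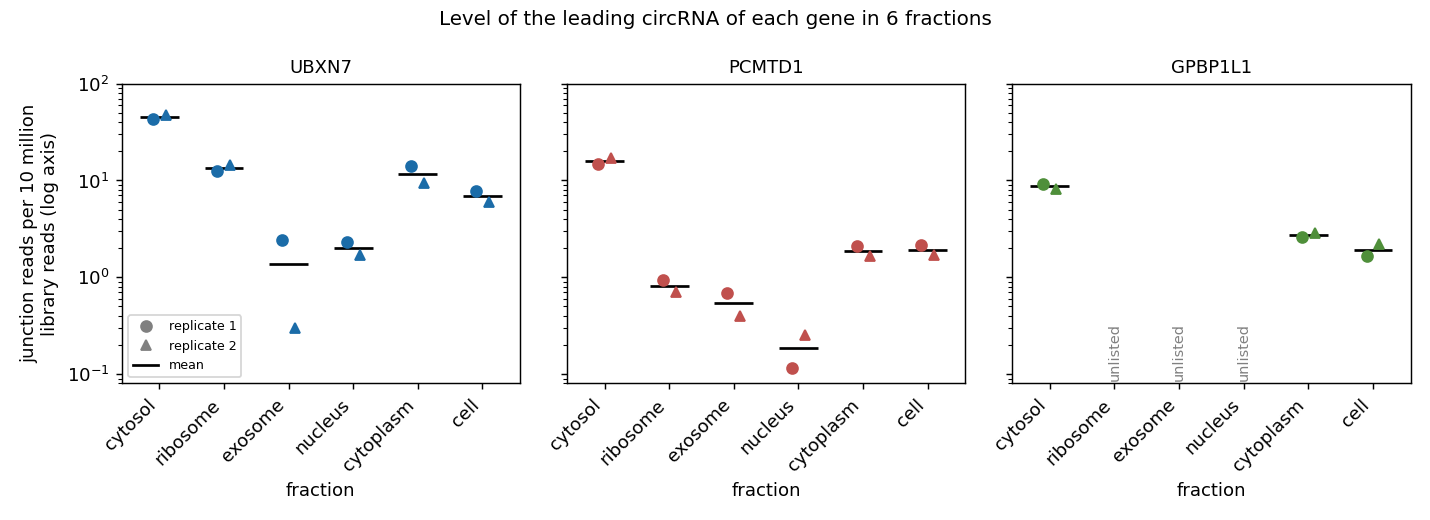
Level of the leading circRNA of UBXN7, PCMTD1 and GPBP1L1 in each library of 6 fractions, in RPTM on a log axis; points are libraries and bars are means of 2. The cytosol is highest for all 3, while the ribosome fraction holds 13.6 for UBXN7, 0.818 for PCMTD1 and no listed value for GPBP1L1.

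The cytosolic lead over the other fractions was compared with that of the other circRNAs in the tested set described below. The level in cytosol over ribosome was 3.30 for UBXN7 and 19.5 for PCMTD1, where the median over 725 circRNAs listed in both was 1.68 and the quartiles were 0.772 and 3.48. PCMTD1 ranked 5 from the top and UBXN7 ranked 196, between the quartiles. The level in cytosol over cytoplasm was 3.81 for UBXN7, 8.53 for PCMTD1 and 3.16 for GPBP1L1, against a median of 0.835 over 814 circRNAs, with ranks of 52, 10 and 82. In cytosol over nucleus, PCMTD1 at 86.5 ranked first of 460, although its nuclear level rests on 3 reads. UBXN7 at 22.3 was 27th, where the median was 2.77. In cytosol over cell the 3 rings had 6.48, 8.35 and 4.49 (UBXN7, PCMTD1 and GPBP1L1), where the median over 799 circRNAs was 1.05. All 3 stood in the upper part of that range, at ranks 24, 15 and 55. In ribosome over cytoplasm UBXN7 had 1.15 and PCMTD1 0.437, on either side of the median of 0.473 over 782 circRNAs.

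Cytosol and ribosomes are both parts of the cytoplasm of a cell. UBXN7 had a lower mean in the cytoplasm (11.8) than in either of them (44.8 and 13.6). Of 711 tested circRNAs listed in all 3 tables, 73 (10.3%) had such a pattern, 266 lay between and 372 (52.3%) were highest in the cytoplasm. The PCMTD1 levels in cytosol (16.0) and ribosome fraction (0.818) lay on either side of its cytoplasmic level (1.87). The deposited averages carry up to 15 decimals for cytosol, ribosome and exosome and 10 for nucleus, cytoplasm and cell. The tables thus appear to have been written in 2 groups, and the part this plays in ratios of cytosol to cytoplasm, cell or nucleus was not tested.

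**Figure D2:**
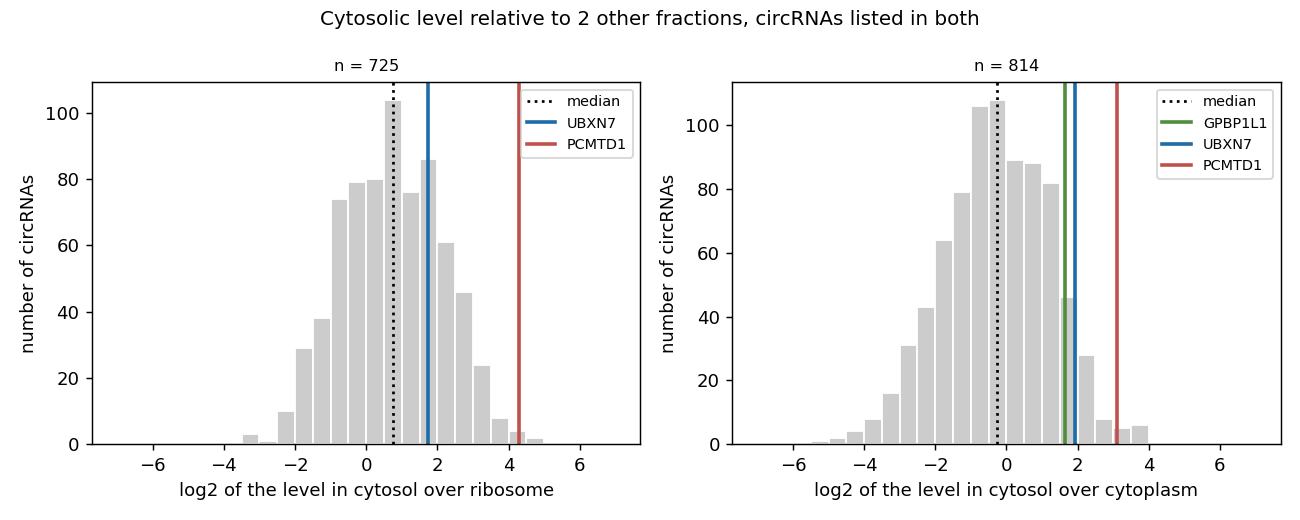
Histograms of the log2 ratio of the mean level in cytosol over ribosome (725 circRNAs) and in cytosol over cytoplasm (814 circRNAs), with coloured lines at the leading circRNAs and a dotted line at the median. PCMTD1 lies in the upper tail of both, at ratios of 19.5 and 8.53, while UBXN7 lies near the bulk in the first, at 3.30.

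The 3 leading circRNAs did not keep one proportion to each other. Ratios within a library do not depend on how libraries are scaled. PCMTD1 over UBXN7 was 0.347 and 0.365 in the cytosolic libraries, 0.0738 and 0.0485 in the ribosomal, 0.148 and 0.174 in the cytoplasmic and 0.274 and 0.280 in the cell libraries. The 4 fractions did not overlap, and the ribosome fraction held the least PCMTD1 per UBXN7. Nuclear ratios of 0.05 and 0.148 and exosomal ratios of 0.281 and 1.33 rest on at most 5 PCMTD1 reads a library. GPBP1L1 over UBXN7 was 0.215 and 0.174 in cytosol, 0.186 and 0.302 in cytoplasm and 0.212 and 0.366 in cells, and these overlapped. GPBP1L1 over PCMTD1 was 0.620 and 0.476 in cytosol against 1.26 and 1.73 in cytoplasm, with 0.775 and 1.31 in cells.

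As a share of all circRNA reads, UBXN7 took 0.663% and 0.823% in the cytosolic libraries, 0.445% and 0.524% in the ribosomal, 0.259% and 0.187% in the nuclear, 0.200% and 0.126% in the cytoplasmic and 0.138% and 0.112% in the cell libraries. On this scale both ribosomal libraries stood above both cytoplasmic ones, which was not so per library read, where all circRNAs together had a ribosome over cytoplasm ratio of 0.385. PCMTD1 took 0.230% and 0.300% in cytosol against 0.0328% and 0.0255% in ribosome, 0.0297% and 0.0219% in cytoplasm and 0.0378% and 0.0312% in cells. GPBP1L1 took 0.142% and 0.143% in cytosol, 0.0373% and 0.0379% in cytoplasm and 0.0293% and 0.0408% in cells. Cytoplasm and cell overlapped for GPBP1L1 on this scale.

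Of the other 11 entries, the PCMTD1 entry of 15586 bases had the highest level, 2.08 ± 0.995 RPTM in the cytosol, where it ranked 467 of 5105. Over all 14 members, 8 (57.1%) were in a single table, where the share over all circRNAs was 52.6%, and 7 (50.0%) were never listed by both callers in any table, against 58.3% of all circRNAs. Those single-caller entries were 4 of CIRC alone and 3 of Ciri alone. The cytosol listed 9 members, cytoplasm and cells 7 each, ribosome 4, exosome 3 and nucleus 2. Of all circRNAs the cytosol listed 45.5%, cytoplasm 62.1%, cells 47.5%, ribosome 25.8%, exosome 3.94% and nucleus 11.6%. Spans ran from 386 to 34992 bases. Host genes of the series had a median of 2 circRNAs and at most 43.

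The 4 PCMTD1 entries share the end at 51861246. The second one, from 51845661 (15586 bases), had 1.38 and 2.79 RPTM in the cytosol, 0.310 and 0.141 in the ribosomal libraries, 0.387 and 0.511 in the cytoplasm and 0.480 and 0.454 in cells. Both cytosolic libraries were again the highest. It stood to the leading PCMTD1 ring as 0.0932 and 0.162 in cytosol, 0.186 and 0.308 in cytoplasm and 0.225 and 0.269 in cells, and the ribosomal ratios of 0.333 and 0.200 came from 3 and 1 reads. Its ratio to the leading ring was lowest in both cytosolic libraries. The leading ring was picked on its cytosolic level, which favours a low ratio there, so this is a description. The longer entry had only 4 and 4 reads in the cytoplasm and 5 and 4 in cells. Another entry starts 16 bases inside the leading one, at 51860861, and was listed in the cytosol by Ciri alone with 13 and 8 reads. Reads of these near-identical rings could have been split between entries by the caller. The remaining entry, of 29803 bases had 2 reads in each cell library.

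UBXN7 and GPBP1L1 lie on the minus strand of RefSeq, so the higher coordinate is nearer the start of the gene. Of the UBXN7 entries, 3 share the position 196391813. The second most abundant in the cytosol, 196391813 to 196393619 (1807 bases), had 12 and 7 reads by Ciri alone. An entry of 394 bases near the other end of the gene (196362294 to 196362687) had 6 and 5 cytosolic reads by Ciri and 7 and 4 by CIRC. CIRC alone gave it 1 and 2 reads in exosomes and 1 and 2 in the cytoplasm. The other 3 UBXN7 entries had 1 to 4 reads in a single table. The leading UBXN7 ring was the sole entry of its gene in the nucleus and in the ribosome fraction.

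The second cytosolic entry of GPBP1L1 runs from 45633489 to the end of the leading ring at 45642499 (9011 bases) and had 4 and 1 reads by CIRC alone. Another, from 45659028 to 45661225 (2198 bases), had 8 and 2 reads in the cytoplasm by CIRC alone and 2 and 2 in cells by both callers, and the cytosol did not list it. The last spans 26282 bases and had 2 and 2 reads, by Ciri alone, in the ribosome fraction. It is the sole GPBP1L1 entry there. None of these 3 minor GPBP1L1 entries reached 1 RPTM in any library.

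**Figure D3:**
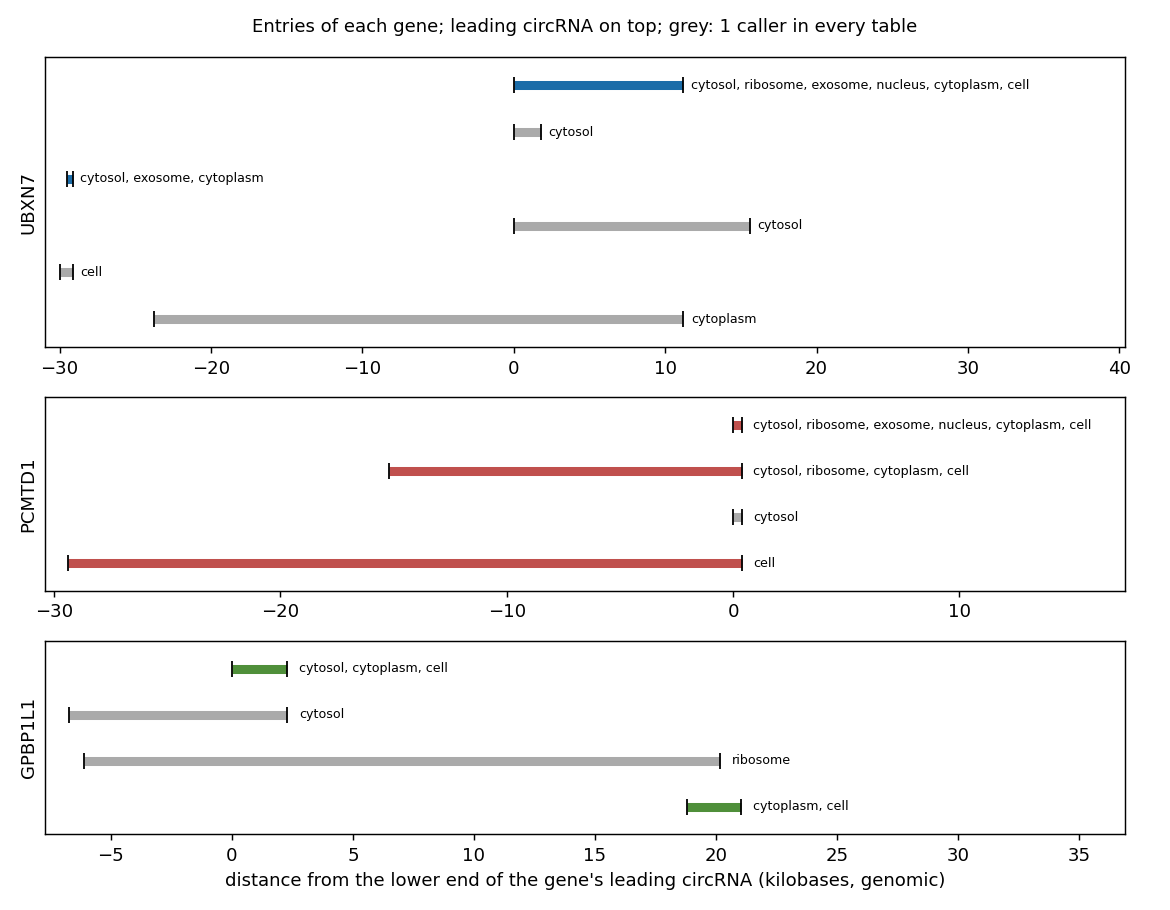
The 14 entries drawn to scale as genomic distance in kilobases from the lower end of each gene's leading circRNA, which is the top bar; the fractions that list an entry are written beside it. Grey bars were listed by 1 caller in every table; the 4 PCMTD1 entries share their upper end, and 3 UBXN7 entries share their lower end.

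Comparisons that contrast neither the cytosolic nor the ribosomal libraries were tested with edgeR's quasi-likelihood test on junction counts. The test used 1 fit over the 12 libraries, with Benjamini-Hochberg adjustment and a threshold of 0.05. The cytosolic and ribosomal libraries thus still enter the filter, the scaling and the estimate of the spread. TMM factors scale the libraries, so each fold change is relative to the rest of the circRNA pool. The test covered 950 circRNAs, and 4 of the 14 members passed its filter on low counts. The leading UBXN7 ring passed in all 6 fractions, PCMTD1 in cytosol, cells and exosomes, and GPBP1L1 in cytosol, cytoplasm and cells. The UBXN7 entry of 394 bases passed solely through its 1 and 2 exosomal reads, so a difference in its exosomal test was built in.

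Nucleus and cytoplasm separate the site of circRNA formation from the site where most rings are found. The leading UBXN7 circRNA had nuclear libraries at 2.01 ± 0.415 RPTM and cytoplasmic libraries at 11.8 ± 3.19, and all circRNAs together were also lower in the nucleus, by a ratio of 0.124. Relative to other circRNAs, the log2 fold change of UBXN7 was −0.05 ± 0.38 (SE) and did not pass (edgeR adjusted p = 0.948). PCMTD1 had nuclear libraries at 0.184 ± 0.0982 RPTM and cytoplasmic libraries at 1.87 ± 0.296, with −0.90 ± 0.77 (adjusted p = 0.336). With a library left out and the filter and scaling redone, UBXN7 ran from −0.80 to −0.17. PCMTD1 ran from −1.97, without nucleus replicate 2, to −0.94. Of 950 circRNAs, 48.2% were called, 14.9% higher and 33.3% lower in the nucleus, and 31.2% were called of 528 listed in both, with a median of 0.37. Of the 4 members tested, only GPBP1L1 was called, lower with an unlisted nucleus entered as 0 (adjusted p = 0.00305). That call was lost with 1 read in place of 0 (adjusted p = 0.0932).

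On the scale of the implied library totals the whole set moved. The median of circRNAs listed in both became −2.09, UBXN7 had −2.53 ± 0.47 (edgeR adjusted p = 1.17e-06) and PCMTD1 −3.30 ± 0.72 (adjusted p = 2.58e-05). Both rings were therefore lower in the nucleus per library read, on a scale that called 83.7% of the 950.

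Exosomes are vesicles that cells release. The leading PCMTD1 circRNA made up 0.195% and 0.174% of circRNA reads in the exosomal libraries and 0.0378% and 0.0312% in the cell libraries. Both exosomal shares were higher, on 5 and 4 reads against 20 and 13. Its log2 fold change with TMM factors was 0.69 ± 0.57 (edgeR adjusted p = 0.309). In new fits, each with its own filter and scaling, it was 0.23 without exosome replicate 1 and 0.14 without replicate 2. The sign turned with the scale. With total circRNA reads, a scale that called 17.1% of the 950, it was 2.38 ± 0.63 (adjusted p = 0.00677). With the implied library totals, which called 89.7%, it was −1.78 ± 0.59 (adjusted p = 0.00367).

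The leading UBXN7 ring made up 0.694% and 0.130% of circRNA reads in exosomes and 0.138% and 0.112% in cells, so replicate 1 alone set the exosomal lead. With TMM it came to −0.10 ± 0.46 on the log2 scale (edgeR adjusted p = 0.869), with 1.58 ± 0.46 on total circRNA reads (adjusted p = 0.0130), −2.51 ± 0.52 on the implied library totals (adjusted p = 1.15e-05) and −2.03 ± 0.69 without exosome replicate 1 (adjusted p = 0.0825). The medians of the 329 circRNAs listed in both tables on the TMM, circRNA-read and library-total scales were −0.03, 1.66 and −2.48, close to the UBXN7 values. The exosomal libraries also had the highest TMM factors, 1.93 and 2.25. Of 950 circRNAs, 46% were called, 4% higher and 42% lower in exosomes. Among the 4 members tested 2 were called, GPBP1L1 lower (unlisted in exosomes, adjusted p = 0.0129) and the UBXN7 entry of 394 bases higher (1 and 2 exosomal reads, unlisted in cells, adjusted p = 0.00654). Neither call held with unlisted circRNAs at 1 read (adjusted p = 0.744 and 0.134), nor without exosome replicate 1 (0.106 and 0.0521) or replicate 2 (0.0548 and 0.117).

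Of the 3 comparisons tested, cytoplasm against whole cell gave the fewest calls. UBXN7 had 11.8 ± 3.19 RPTM in the cytoplasm and 6.91 ± 1.24 in cells, a change of 0.49 ± 0.31 on the log2 scale (edgeR adjusted p = 0.612). GPBP1L1 had 2.74 ± 0.186 and 1.93 ± 0.390 (0.22 ± 0.38, adjusted p = 0.910), and PCMTD1 had 1.87 ± 0.296 and 1.91 ± 0.316 (−0.28 ± 0.40, adjusted p = 0.883). The cytoplasmic libraries lay above both cell libraries for UBXN7 and GPBP1L1 per library read, and PCMTD1 overlapped. None of the 4 members tested was called, where 3.79% of the 950 circRNAs were; unadjusted, 113 of the 950 had p below 0.05. DESeq2 called none of the members either, but it called only 5 of the 950 (0.526%), so this adds little.

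**Figure D4:**
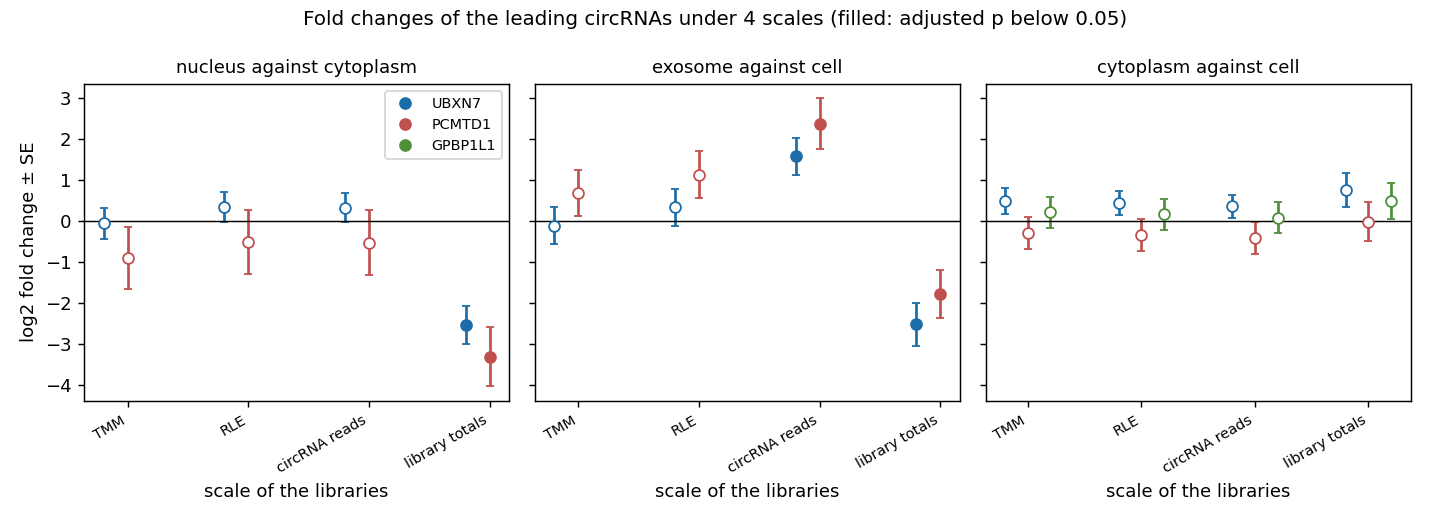
Log2 fold change ± SE of the leading circRNAs listed in both fractions of a pair, for nucleus against cytoplasm, exosome against cell and cytoplasm against cell, with libraries scaled in 4 ways; filled points have an adjusted p below 0.05. In cytoplasm against cell no point is filled, while in exosome against cell PCMTD1 runs from 2.38 with circRNA reads to −1.78 with library totals.

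CircRNAs with the most similar distribution were sought among 946 tested circRNAs of other genes, by Pearson correlation of log2(RPTM + 0.1) over the 6 fraction means. The points share libraries, and unlisted values enter as 0, so r is a description. For UBXN7 the closest were circRNAs of the amino acid transporter gene SLC38A1 (chromosome 12, 46239679 to 46243314; r = 0.992), the cell polarity gene PARD3 (chromosome 10, 34269657 to 34284245; r = 0.991) and the pre-mRNA cleavage factor gene CPSF6 (chromosome 12, 69251129 to 69262562; r = 0.987). The SLC38A1 and PARD3 circRNAs were unlisted in exosome and nucleus, where the UBXN7 ring was listed, so their r rests partly on values entered as 0. The CPSF6 circRNA was listed in all 6 fractions. It was alike in level too, with 39.6 RPTM in cytosol, 16.1 in ribosome, 12 in cytoplasm and 7.81 in cells.

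For PCMTD1 the closest were circRNAs of FAM13B (chromosome 5, 137985257 to 137988315; r = 0.991), the Ras inhibitor gene NF1 (chromosome 17, 31155983 to 31169997; r = 0.973) and the transcription factor gene FOXP1 (chromosome 3, 71041328 to 71053773; r = 0.971). The NF1 circRNA was unlisted in exosome and nucleus, where the PCMTD1 ring was listed. The FAM13B circRNA had 33.8 RPTM in cytosol, 2.99 in ribosome and 5.70 in cytoplasm. For GPBP1L1 they were those of the ubiquitin ligase gene ITCH (chromosome 20, 34470048 to 34481206), the endocytosis gene FCHO2 (chromosome 5, 72989427 to 72990864) and the sorting nexin gene SNX6 (chromosome 14, 34567686 to 34568013), each at r = 0.999 and each unlisted in the same 3 fractions. The members' own profiles had r = 0.863 between UBXN7 and PCMTD1, 0.892 between PCMTD1 and GPBP1L1 and 0.740 between UBXN7 and GPBP1L1. Of the 946 circRNAs, 47 were at r of 0.95 or more with UBXN7, 18 with PCMTD1 and 43 with GPBP1L1. Those were picked by this cut, so their higher r does not show how alike the members are. Where the members' own r falls among all 946 was not determined.

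Other genes of VCP and its cofactors gave few measurable circRNAs. Of 35 listed genes, 16 had an entry, and besides UBXN7 only 2 circRNAs were tested, both of UBXN2A, which encodes another UBX protein that binds VCP. The UBXN2A circRNAs from 23958301 and from 23982896 to 23984831 on chromosome 2 had 5.59 ± 2.06 and 4.51 ± 1.49 RPTM in the cytosol, against 1.08 ± 0.450 and 1.01 ± 0.198 in the cytoplasm. Both were higher in the cytosol, and neither was listed in ribosome, exosome or nucleus. Both were called lower in the nucleus with unlisted values at 0 (edgeR adjusted p = 0.0386 and 0.0458), as 33.3% of the 950 were, and neither was called between cytoplasm and cell. In exosome against cell the one from 23958301 was called lower (adjusted p = 0.0414), as 42% of the 950 were, also with an unlisted value at 0. Entries of this list that did not pass the filter went both ways between cytosol and cytoplasm. A UBXN4 entry (chromosome 2, 135748267 to 135761911) had 0.457 ± 0.103 RPTM in the cytosol and 1.17 ± 0.151 in the cytoplasm. An RHBDD1 entry (chromosome 2, 226864604 to 226914351) had 0.606 ± 0.042 and 0.321 ± 0.0929.

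Genes of cullin ligases, which act with UBXN7, of their regulators and of the substrate HIF1A had 5 tested circRNAs out of 42 entries of 15 genes. Between nucleus and cytoplasm 1 was higher, 1 lower and 3 were not called, where 14.9% of the 950 were higher and 33.3% lower. The 3 not called all came from DCUN1D4 and share the start at 51863437. The tested HIF1A circRNA (chromosome 14, 61721509 to 61721823) is from the gene of an oxygen-regulated transcription factor that a cullin ligase targets. It had nuclear libraries at 1.30 ± 0.133 RPTM and cytoplasmic libraries at 0.651 ± 0.379. Relative to other circRNAs its log2 fold change was 3.35 ± 0.53 (edgeR adjusted p = 1.08e-05). An untested HIF1A entry with the same end, from 61720382, had the lower mean in the nucleus, 0.179 ± 0.0729 against 0.901 ± 0.642 RPTM in the cytoplasm. The CUL3 circRNA, from a cullin gene, was unlisted in the nucleus and called lower (adjusted p = 0.0394). Exosomes against cells gave 3 lower calls, all unlisted in exosomes, where 42% of the 950 were called lower. The median level in cytosol over cytoplasm was 1.08 for these 5, against 0.835 for all.

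Of the relatives of the 3 host genes, GPBP1, PCMT1 and FAF1 gave circRNAs, and 2 were tested. The GPBP1 circRNA (chromosome 5, 57246300 to 57251141) had 2.10 ± 0.353 RPTM in the cytosol, 0.690 ± 0.777 in the ribosome fraction and 1.97 ± 0.705 in the cytoplasm. Unlike GPBP1L1 it was listed in the ribosome fraction, and its cytosolic and cytoplasmic levels were within the spread. The PCMT1 circRNA (chromosome 6, 149771162 to 149796500), from the gene of the methyltransferase that repairs isoaspartyl residues, had 1.32 ± 0.377 in the cytosol, 1.27 ± 0.397 in the ribosome fraction and 0.762 ± 0.188 in the cytoplasm. It had overlapping cytosolic and ribosomal levels, while those of PCMTD1 were 16.0 in cytosol and 0.818 in ribosome. Of these 2, the GPBP1 circRNA was called lower in the nucleus than in the cytoplasm (edgeR adjusted p = 0.0156), as 33.3% of the 950 were. The PCMT1 circRNA was called higher in the cytoplasm than in cells (edgeR adjusted p = 0.00924), as 1.58% of the 950 were. GPBP1 was unlisted in the nucleus and PCMT1 in cells, so each call rests on a value entered as 0. In exosome against cell neither was called. These lists are small, and nothing particular to them is read from the counts.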

How the data were processed

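The authors deposited, per the file headers, junction read counts (whole numbers) for 2 callers headed Ciri and CIRC, and RPTM values, a signal scaled to 10000000 library reads. Per the submitters' processing notes the build is hg38; aligner and caller versions are not given in the sources used here. RPTM was a linear function of the 2 counts and implied library totals of 65.6 to 104 (in units of 1000000 reads). Where both callers had an entry they were averaged, and tests use that value rounded. Tables were joined on chromosome, start and end.

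Tested circRNAs were listed by Ciri and CIRC together in some table (4679) and passed filterByExpr with a minimum count of 10 (950). Unlisted circRNAs entered as 0. Fits with a library left out repeated the filter and the scaling, so a change there is not that of the library alone. edgeR 4.0.16 in R 4.3.3 was used, with DESeq2 1.42.0 as an alternative, and the fit was checked on simulated data. SE is the absolute log2 fold change over the square root of F. Reads of the 2 libraries differed beyond sampling noise in 5 fractions (chi-square test); the nuclear pair, with the fewest reads after exosomes, did not (p = 0.0857) and was kept as 2, since its library totals differ. Named circRNAs were the most abundant and the second cytosolic entry per gene, entries in at least 2 tables, and 3 similar circRNAs each. Members and lists were chosen with earlier results of these data known.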

Additional observations from a re-analysis of the deposited data

How the results depend on the processing

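Outside exosomes, levels of the leading circRNAs by CIRC differed from those by Ciri by −9.06% to 0% where both listed them. CIRC did not list UBXN7 in exosomes and Ciri did not list PCMTD1 in the nucleus. Few reads limit the nuclear and exosomal values, and the sign of the exosomal fold changes of the leading UBXN7 and PCMTD1 rings turned with the scale.

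Members called in nucleus against cytoplasm (1 of 4) became 3 with the implied library totals and 0 with unlisted circRNAs at 1 read. With Ciri alone they were 2 of 3 tested, where 63.5% of 819 circRNAs were called. The call added there was the leading PCMTD1 ring (log2 fold change −6.42), which Ciri did not list in the nucleus, so it entered as 0. With all entries of either caller they were 3 of 4, where 60.5% of 1305 circRNAs were called. In exosome against cell (2 of 4) they became 4 with the implied totals, 3 with total circRNA reads or CIRC alone, 1 of 3 with Ciri alone, and 0 with unlisted circRNAs at 1 read. DESeq2 also called 0, with no adjusted p for the UBXN7 entry of 394 bases. Over all circRNAs in exosome against cell, CIRC alone called 51.2% of 871 and Ciri alone 53% of 819. The call added with CIRC alone was the leading UBXN7 ring (log2 fold change −8.51), which CIRC did not list in exosomes, so it entered as 0. For circRNAs listed in both tables the members called were 0 in both comparisons, as they were for the 4 exosomal and cell libraries alone. Each of these 3 fits tested only 2 members and left out the ones called before, so these zeros follow from the selection. In cytoplasm against cell (0 of 4) 1 of 7 was called without a filter, where 25.8% of 4679 circRNAs were called. It was the PCMTD1 entry of 29803 bases, which was unlisted in the cytoplasm and entered as 0. Leaving out a library gave 1 throughout in nucleus against cytoplasm, 0 in cytoplasm against cell, and 0 to 2 in exosome against cell, with 0 without either exosomal library.

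Over all circRNAs the number tested changes with the setting. Nucleus against cytoplasm called 458 of 950. Of the same 950 it called 795 with the implied totals, 161 with unlisted at 1 read and 106 with DESeq2. It called 829 of 4679 (17.7%) with no filter, 805 of 2630 (30.6%) with a minimum of 5 reads in 2 libraries, 790 of 1305 with all entries, 225 of 513 in the 4 libraries of the pair and 126 of 490 listed in both tables. Higher against lower calls were 142 and 316 with TMM, 181 and 233 with RLE, 180 and 243 with total circRNA reads, and 24 and 771 with the implied totals. Cytoplasm against cell called 36 of 950, with 9 for unlisted at 1 read and 5 with DESeq2. It called 1206 of 4679 (25.8%) with no filter, 344 of 2630 (13.1%) with the minimum of 5 reads, 117 of 1305 with all entries, 72 of 871 with CIRC alone, 9 of 852 for the pair, and 0 of 911 listed in both tables (60 at unadjusted p below 0.05 by edgeR). Exosome against cell called 437 of 950, with 852 for the implied totals, 234 with RLE, 162 with total circRNA reads, 63 with DESeq2 and 26 with unlisted at 1 read. It called 88 of 318 for the pair and 27 of 295 listed in both. Its higher and lower calls were 38 and 399 with TMM, 46 and 188 with RLE, 143 and 19 with total circRNA reads and 11 and 841 with the implied totals. With 1 library left out, between 1089 and 1494 were tested and the counts ran from 154 to 473, from 16 to 23 and from 51 to 420. The lowest came without nucleus replicate 1, cell replicate 1 and exosome replicate 1, and nucleus replicate 2 (252) and exosome replicate 2 (110) also weighed.

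UBXN7 in nucleus against cytoplasm turned to 0.36 with RLE, 0.33 with total circRNA reads, 0.05 with unlisted at 1 read and 0.36 with DESeq2, none called. In exosome against cell it turned to 0.34 with RLE, 1.58 with total circRNA reads, 0.43 with unlisted at 1 read, 0.03 with Ciri alone, 0.33 with DESeq2, 0.07 for circRNAs listed in both and 0.04 for the pair, and PCMTD1 turned to −1.78 with the implied totals; 1.58 and −1.78 passed. GPBP1L1 in cytoplasm against cell ran from −0.02, without cell replicate 1, to 0.40 with a library left out. The cause of these changes was not tested.

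Libraries of the same replicate number did not deviate together (correlations from −0.061 to 0.085 over pairs of fractions). With few reads for many circRNAs, this cannot tell whether they came from the same culture. A replicate block gave 467, 39 and 447 calls in the 3 comparisons and changed no call of a member.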
